A study of Mus musculus with 6 samples.

Results

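The genes described here are 9 of the 37 genes annotated on the mouse mitochondrial genome. They are the protein-coding genes *mt-Nd1*, *mt-Nd2*, *mt-Nd4*, *mt-Nd5*, *mt-Nd6*, *mt-Cytb* and *mt-Co1* and the ribosomal RNA genes *mt-Rnr1* and *mt-Rnr2*. They were found by exact match of their Ensembl IDs to the GENCODE mouse annotation and make up 9 of the 47643 gene IDs counted. The list holds every protein-coding or ribosomal RNA gene of that genome with more than a few counts. The last gene inside it was *mt-Nd6*, with 324 counts over all libraries, and the first outside was *mt-Nd3*, with 4. The genes were thus chosen by their counts, and their shares of the libraries at both days were known by then, so counts and shares are a description with no test.

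Mouse submandibular salivary gland organoids (mSGOs), the material measured, are epithelial structures that dissociated adult gland cells form in Matrigel. Cells came from 3 C57BL/6 mice aged 8 to 12 weeks, and organoids of each mouse were harvested on day 5 and on day 7, which gave 6 libraries. All organoids were non-irradiated and untreated, and all were kept in WRY medium, which holds Wnt3a- and R-spondin1-conditioned medium, EGF, FGF2, insulin, dexamethasone and Y27632, so by the labels the groups differ in the day of harvest. Libraries were made from 100 ng of RNA with an integrity number over 9 by a 3′-end kit. Such a kit is built to read near the end of an adenylated transcript. A count is 1 read, with no correction for length, and it does not show where in the gene the read lies.

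The mitochondrial genome is a small circle that encodes subunits of the respiratory chain and of ATP synthase, together with the ribosomal and transfer RNAs needed to translate them. Both strands are transcribed into long precursors, which are cut largely at the transfer RNAs that lie between the genes. Most of the released messenger RNAs then receive short poly(A) tails. Messages cut from 1 precursor can still differ in level, since each is then adenylated, stabilised and degraded on its own.

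A 3′-end kit is built to read the last stretch of each adenylated message. The annotated ends of the 7 protein-coding genes are shown for that reason. Whether each message ends where its annotated gene ends was not tested. Each line gives the last 30 bases of the gene, 5′ to 3′ on its own strand, with the stop codon as annotated in capitals. The positions are on GRCm39, chrM:3678-3707 for *mt-Nd1*, chrM:4922-4951 for *mt-Nd2*, chrM:6843-6872 for *mt-Co1*, chrM:11515-11544 for *mt-Nd4*, chrM:13536-13565 for *mt-Nd5*, chrM:13552-13581 on the minus strand for *mt-Nd6* and chrM:15259-15288 for *mt-Cytb*.
mt-Nd1: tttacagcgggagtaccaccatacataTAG
mt-Nd2: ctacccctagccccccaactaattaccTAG
mt-Co1: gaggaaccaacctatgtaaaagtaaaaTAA
mt-Nd4: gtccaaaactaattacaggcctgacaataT
mt-Nd5: attatcttatactcaattaatctcgagTAA
mt-Nd6: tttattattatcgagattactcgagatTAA
mt-Cytb: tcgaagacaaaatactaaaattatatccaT
The annotated *mt-Nd4* and *mt-Cytb* end in a lone T, and their length leaves a remainder of 1 after division into codons. In such genes the poly(A) tail supplies the rest of the stop codon. The annotated *mt-Nd1*, which ends at chrM:3707, overlaps *mt-Ti*, which starts at chrM:3706. In the same way *mt-Nd2*, which ends at chrM:4951, overlaps *mt-Tw*, which starts at chrM:4950. Whether the messages of *mt-Nd1* and *mt-Nd2* keep the whole TAG after cutting was not tested. *mt-Nd5* and *mt-Nd6* lie on opposite strands and share their last 14 bases (chrM:13552-13565). Whether the counting used strand is not given in the sources used here, so for *mt-Nd6*, the only protein-coding gene on the minus strand, reads from the gene and reads antisense to it cannot be told apart.

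Libraries held between 1918198 and 2837397 counts in genes, and a gene at 0 could hold up to 3 counts, or 1.06 to 1.56 counts per 1000000 (CPM). All 8 epithelial markers were detected, summed at 14382 to 18158 CPM at day 5 and 11558 to 16010 CPM at day 7. Of the macrophage markers 8 of 12 were at 0 in every library, and of the endothelial markers 2 of 10, with highest sums of 13.9 and 27.4 CPM. Fibroblast markers, of which 3 of 12 (*Col1a2*, *Col3a1* and *Lum*) were at 0, summed to 79.8 to 120.4 CPM at day 5 and to 123.8 to 150.7 CPM at day 7, with no overlap between the days. The 7 acinar markers counted summed to 5.02 to 10.1 CPM at day 5 and 9.97 to 24.96 CPM at day 7, with 3 at 0. Erythroid markers reached at most 0.489 CPM. Reads in no gene or in more than 1 gene were 13.7% to 14.4% of all reads at day 5 and 9.12% to 9.74% at day 7. The ID with the most counts, ENSMUSG00000098178, which the annotation does not name, held 13.9% ± 1.07 (SD, n = 3) of the day 5 counts and 17.02% ± 1.74 of the day 7 counts.

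For all 9 genes the SD between libraries was larger at day 7 than at day 5. The day 7 library of mouse 1 stood apart, with the highest value of that day for all 9 genes. The main values that rest on it are therefore also given without it. In bulk RNA, fewer cells of a type and less RNA per cell cannot be told apart, and this holds for every value that follows.

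The 7 protein-coding genes together held a smaller part of the libraries at day 7. Their share of counts in genes was 2.60%, 2.72% and 2.68% at day 5 for mice 1, 2 and 3, and 2.26%, 0.926% and 0.924% at day 7. Each day 7 share lay below each day 5 share, narrowly in mouse 1 and far below in mice 2 and 3. The means were 2.66% ± 0.0597 and 1.37% ± 0.772 (SD, n = 3), and the ratio of day 7 to day 5 within a mouse was 0.871, 0.341 and 0.345. Without mouse 1 the day 7 mean was 0.925%. Among the shares of a library's gene counts held by the protein-coding, the ribosomal RNA or all 9 genes, the widest 95% Wilson interval spanned 0.0780 percentage points, which covers counting error only.

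The ribosomal RNA genes did not move in 1 direction. They held 6.27%, 5.55% and 6.31% of counts at day 5 and 7.20%, 4.31% and 5.90% at day 7. The day 7 library of mouse 1 was the highest of all 6 and that of mouse 2 the lowest, so the days overlapped. The mean difference of -0.239 percentage points (6.04% ± 0.424 and 5.80% ± 1.45, SD, n = 3) turned to 0.508 without the day 7 library of mouse 2, and to 0.0684 when reads outside genes were counted in the denominator.

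**Figure D1:**
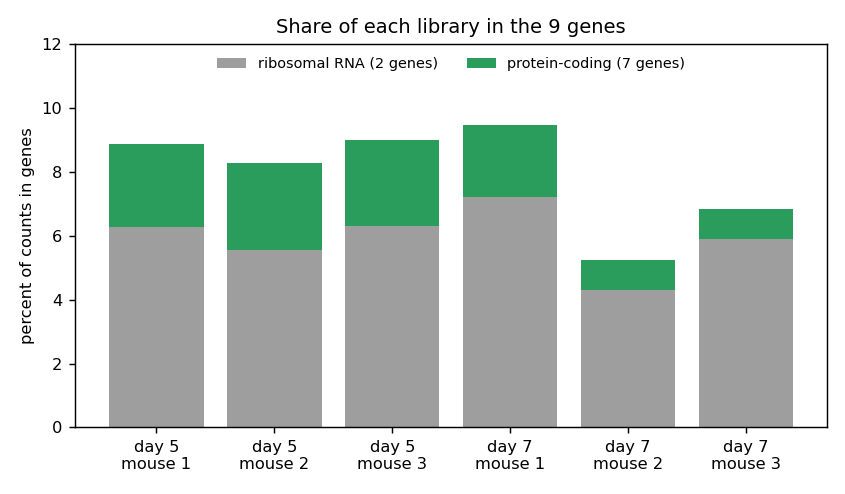
Percent of each library's counts in genes held by the 2 mitochondrial ribosomal RNA genes (grey) and the 7 protein-coding genes (green), stacked, for the 6 libraries. The green part is 2.60% to 2.72% at day 5 and 0.924% to 2.26% at day 7, while the grey part overlaps between the days.

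All 9 genes together took 8.87%, 8.27% and 8.98% of counts at day 5 and 9.46%, 5.24% and 6.83% at day 7. The total thus rose in mouse 1 and fell in mice 2 and 3. Within each library, counts of ribosomal RNA per count of protein-coding RNA were 2.41, 2.05 and 2.36 at day 5 and 3.18, 4.66 and 6.39 at day 7. This ratio has no denominator outside the mitochondria. It was higher at day 7 in 3 of 3 mice, 1.32-fold, 2.28-fold and 2.71-fold, with no overlap between the days (2.27 ± 0.198 and 4.74 ± 1.61, SD, n = 3). Without mouse 1 the day 7 mean was 5.52. The ratio covers 7 of the 13 protein-coding genes, as the other 6 had next to no counts. The capture of ribosomal RNA beside messages was not tested.

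Per kilobase of gene, counts of the ribosomal RNAs stood highest at both days. How well a 3′-end kit captures ribosomal RNAs beside messages was not tested, so these counts need not give their relative amounts. At day 5, *mt-Rnr2* was at 26784 ± 1770 CPM per kilobase and *mt-Rnr1* at 16905 ± 2160 (SD, n = 3). The messages followed in the order *mt-Nd1* (7561 ± 125 CPM per kilobase), *mt-Nd2* (7436 ± 103), *mt-Nd4* (4617 ± 247), *mt-Cytb* (2853 ± 45.5), *mt-Co1* (395 ± 19.4), *mt-Nd5* (317 ± 21.4) and *mt-Nd6* (18.2 ± 3.19). Only the neighbours *mt-Nd1* and *mt-Nd2* overlapped across the day 5 libraries. A 3′-end kit is built so that a longer gene does not give more reads, so division by length is a convention here. That division decides that *mt-Nd1* rather than *mt-Nd2* comes first. The order holds for reads inside the annotated genes. Reads of a message that runs past its annotated gene would be missing from its level, and their number was not tested.

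At day 7 that order was blurred. *mt-Rnr2* was at 26629 ± 6689 CPM per kilobase and *mt-Rnr1* at 19098 ± 6979, now with overlapping ranges. *mt-Nd2* led the messages at 5725 ± 3825 CPM per kilobase, ahead of *mt-Nd1* at 3293 ± 1854, *mt-Nd4* at 1941 ± 885 and *mt-Cytb* at 1120 ± 723. Among all neighbours from *mt-Nd2* down to *mt-Nd5* the ranges of the 3 libraries overlapped. *mt-Nd6* stayed lowest, at 64.4 ± 20.3 CPM per kilobase, below every value of *mt-Nd5*. Without mouse 1 the day 7 means were 3524 CPM per kilobase for *mt-Nd2*, 2224 for *mt-Nd1*, 1430 for *mt-Nd4* and 716 for *mt-Cytb*, in the same order, while *mt-Nd5* (259) then stood above *mt-Co1* (228).

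Day 7 was compared with day 5 gene by gene, in a fit over all 15792 genes with enough counts. The threshold was an adjusted p under 0.05 together with a log2 fold change beyond 0.6 in size. Of the 9 genes, all tested, 1 rose and 3 fell, and 5 did not pass. The threshold was passed by 12.0% of all genes, 7.22% upward and 4.82% downward, and since the share by day was known when the 9 genes were chosen, nothing is read from their count against these percentages. Library totals alone as the scale gave the same calls for the 9 genes, but turned the split over all genes from 1140 higher and 761 lower to 950 higher and 1008 lower.

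The genes for subunits of complex I, which passes electrons from NADH to ubiquinone, did not move as 1 group. *mt-Nd1* encodes a membrane subunit beside the site where ubiquinone is reduced. It was at 7292, 7317 and 7099 CPM at day 5 and at 5198, 2054 and 2203 CPM at day 7. Every day 7 library lay below every day 5 library, and the fall was 0.713-fold, 0.281-fold and 0.310-fold within the mice. Its log2 fold change was -1.20 ± 0.28 (SE), with an adjusted p of 0.00826. The call was lost when a day 5 library was left out, with adjusted p of 0.0526, 0.0686 and 0.0525 without mouse 1, 2 or 3, and when the day 7 library of mouse 2 was (0.0697), while the log2 fold change stayed between -1.77 and -0.97.

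*mt-Nd4* encodes one of the antiporter-like proton pumping subunits. Its level was 6000, 6675 and 6413 CPM at day 5 and 4083, 1933 and 2008 CPM at day 7. The days did not overlap, and mouse 1 again changed least, 0.681-fold against 0.290-fold and 0.313-fold. The log2 fold change was -1.25 ± 0.25 (SE, adjusted p = 0.00292), and the call was kept with any library left out.

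*mt-Nd2*, which encodes another antiporter-like subunit, held still at day 5 and scattered at day 7. It was at 7756, 7801 and 7598 CPM at day 5 and at 10511, 3322 and 3995 CPM at day 7. The day 7 library of mouse 1 lay above all day 5 libraries, and the other two lay well below them. The log2 fold change of -0.38 ± 0.31 (SE) did not pass (adjusted p = 0.469). Without the day 7 library of mouse 1 it was -1.08 (adjusted p = 0.000234), past the threshold.

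*mt-Nd5*, the largest of the antiporter-like subunits, had 619, 542 and 572 CPM at day 5 and 859, 363 and 582 CPM at day 7. Its days overlapped, and the fitted difference of 0.06 ± 0.24 (SE, log2, adjusted p = 0.925) changed sign with the scaling and with the library left out.

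*mt-Nd6* encodes a small membrane subunit of complex I and is the only message of the annotated minus strand. It was counted 25, 21 and 21 times at day 5 and 116, 93 and 48 times at day 7, which is 10.3, 10.5 and 7.56 CPM against 44.5, 32.3 and 23.5 CPM. Each day 7 library exceeded each day 5 library, and the rise was 4.31-fold, 3.06-fold and 3.11-fold within the mice. The log2 fold change was 1.83 ± 0.30 (SE, adjusted p = 0.000515) and passed with any library left out, between 1.58 and 2.03. It rests on 324 reads, and reads antisense to the gene may be among them. Whether the *mt-Nd6* message carries a tail that a 3′-end kit can read was not tested.

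*mt-Cytb* encodes cytochrome b, the catalytic core of complex III that hands electrons from ubiquinol towards cytochrome c. It was at 3302, 3205 and 3285 CPM at day 5 and at 2205, 1027 and 611 CPM at day 7. The groups did not overlap, and mouse 3 showed the deepest fall, 0.186-fold, against 0.668-fold and 0.320-fold in mice 1 and 2. The log2 fold change was -1.35 ± 0.31 (SE, adjusted p = 0.00803). The call was lost without the day 5 library of mouse 2 (adjusted p = 0.0585) or the day 7 library of mouse 2 (0.0766), and without the day 7 library of mouse 1 the log2 fold change was -1.99.

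*mt-Co1* encodes the catalytic subunit of complex IV, cytochrome c oxidase, where oxygen is reduced. It was at 644, 599 and 587 CPM at day 5 and at 1116, 384 and 321 CPM at day 7. As with *mt-Nd2*, mouse 1 rose above the day 5 range and mice 2 and 3 fell below it. The log2 fold change was -0.01 ± 0.32 (SE, adjusted p = 0.990), and without the day 7 library of mouse 1 it was -0.79 (adjusted p = 0.00486), past the threshold.

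*mt-Rnr1* and *mt-Rnr2*, the RNAs of the small and the large subunit of the mitochondrial ribosome, had the most counts of the 9 genes. *mt-Rnr1* was at 18366, 14291 and 15775 CPM at day 5 and 25246, 11979 and 17491 CPM at day 7, and *mt-Rnr2* at 43454, 39191 and 44469 CPM and 51138, 30474 and 44769 CPM. Both overlapped between the days, with log2 fold changes of 0.18 ± 0.24 and -0.01 ± 0.22 (SE, adjusted p of 0.703 and 0.990). Neither passed in edgeR, DESeq2 or limma voom or with any library left out, and 0 of the 2 had an unadjusted p under 0.05 in edgeR. Counts of *mt-Rnr2* per count of *mt-Rnr1* were 2.37, 2.74 and 2.82 at day 5 and 2.03, 2.54 and 2.56 at day 7, lower in 3 of 3 mice but with overlapping days.

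**Figure D2:**
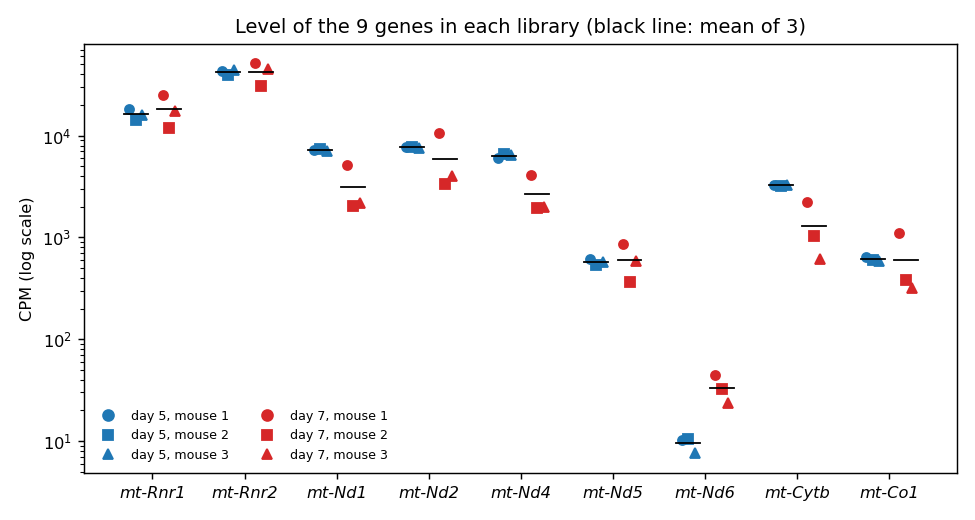
Level of the 9 genes in CPM (log axis) in each library, with day 5 in blue, day 7 in red, 1 marker shape per mouse and a black line at the mean of 3 libraries. The days do not overlap for *mt-Nd1*, *mt-Nd4*, *mt-Cytb* and *mt-Nd6*, and the day 7 library of mouse 1 is the highest of its day for each gene.

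The 4 genes past the threshold were also the 4 whose days did not overlap. Over all genes tested, 31.0% did not overlap between the days, 15.4% higher and 15.5% lower. Of the 11 other fits over all 6 libraries, glmTreat and the robust fit changed calls of the 9 genes. With glmTreat, which tests against the minimum fold change itself, *mt-Nd6* alone was called (adjusted p = 0.00462), and *mt-Nd4* (0.0515), *mt-Cytb* (0.0720) and *mt-Nd1* (0.102) were not. The robust fit lost *mt-Cytb* (adjusted p = 0.106).

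Since all but 1 of the messages come from the same precursor strand, their proportions were compared within each library. *mt-Nd2* was taken as the reference after its values had been seen, so the ratios are a description with no test. Counts of *mt-Nd1* per count of *mt-Nd2* were 0.940, 0.938 and 0.934 at day 5 and 0.495, 0.618 and 0.551 at day 7. At day 5 the 3 mice were thus nearly the same, and at day 7 all were lower, with the largest departure in mouse 1, the mouse whose *mt-Nd1* level had fallen least.

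*mt-Nd4* behaved alike, with 0.774, 0.856 and 0.844 counts per count of *mt-Nd2* at day 5 and 0.388, 0.582 and 0.503 at day 7. For *mt-Cytb* the ratios were 0.426, 0.411 and 0.432 at day 5 and 0.210, 0.309 and 0.153 at day 7. In all 3 genes the days were separate, in every mouse in the same direction, and mouse 1, highest of day 7 in the levels, was not the highest in any of these ratios.

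The ratios of the rarer messages were higher at day 7 in every mouse. *mt-Nd5* had 0.0799, 0.0695 and 0.0753 counts per count of *mt-Nd2* at day 5 and 0.0818, 0.109 and 0.146 at day 7, separate but barely so in mouse 1. *mt-Co1* had 0.0831, 0.0768 and 0.0773 at day 5 and 0.106, 0.116 and 0.0802 at day 7, higher by 1.28-fold, 1.51-fold and 1.04-fold within the mice although the days overlapped. *mt-Nd6*, the rarest, had 0.00133, 0.00135 and 0.000995 at day 5 and 0.00423, 0.00972 and 0.00588 at day 7, with no overlap. As a share of the counts of the 7 protein-coding genes, *mt-Nd2* itself went from 30.3%, 29.8% and 29.7% to 43.8%, 36.4% and 41.0%.

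**Figure D3:**
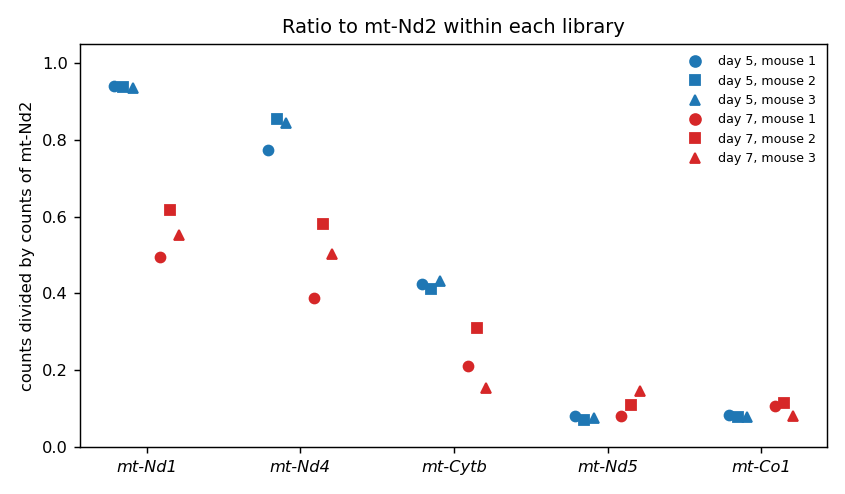
Counts of 5 messages divided by the counts of *mt-Nd2* in the same library, with day 5 in blue, day 7 in red and 1 marker shape per mouse (*mt-Nd6*, with far fewer counts, is not drawn). *mt-Nd1*, *mt-Nd4* and *mt-Cytb* are lower at day 7 in every mouse, and *mt-Co1* overlaps between the days.

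Share of the libraries, level and ratio were set against what else differed between the days. The share of reads outside genes and that of the most counted ID moved with the day, as given above. With those reads added to the denominator, with that ID removed from it, or with the mitochondrial genes removed from it, the difference in the protein-coding share lay between -1.44 and -1.04 percentage points, against -1.29. The ratio of ribosomal to protein-coding counts does not contain either quantity. Of the marker lists, the sum of the fibroblast markers moved with the day without overlap, as given above. Of its 8 markers tested, 0 passed the threshold in edgeR, DESeq2 or limma voom. Of the 8 epithelial markers 1 rose past the threshold, *Krt19* (log2 fold change 1.78), and 1 fell, *Krt8* (-0.65). The call of *Krt8* was lost in 5 of 17 alternative fits. Of 3 macrophage markers tested, *Cd68* rose and *Cx3cr1* fell, calls that were lost in 4 and 7 of 16 alternative fits. Of the 3, 1 was at 0 in every library of a day, so the other day alone carried it past the filter. The part of these marker changes in the values of the 9 genes was not tested.

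Other genes of the mitochondrial genome were examined next. Of the 13 protein-coding genes, *mt-Co2*, *mt-Atp8*, *mt-Atp6*, *mt-Co3* and *mt-Nd4l* had 0 counts in all 6 libraries and *mt-Nd3* had 4. These 6 genes, for subunits of complexes IV, V and I, lie side by side between *mt-Co1* and *mt-Nd4*. All 6 lie wholly inside a stretch of which the nuclear genome holds a near-identical copy. On GRCm39 the copy is at chr1:24650616-24655269 on the minus strand, 4654 aligned bases at 99.936% identity to chrM:6390-11042, with 2 mismatches and 1 gap. The 11 mitochondrial genes wholly inside it, 6 protein-coding and 5 for transfer RNAs, held 5 counts in all libraries together, and the 22 genes without a base in a copy of at least 98% identity and 100 bases held 1092862 of the 1167904 counts of all mitochondrial genes. The nuclear pseudogenes annotated in the copy had 3 counts for *Atp6-ps*, 1 for *Gm28437* and 0 for the other 5 that were counted.

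This copy overlaps 2 of the 9 genes, and its edges in them are given here, with the bases inside the copy in capitals, at chrM:6375-6404 in *mt-Co1* and chrM:11028-11057 in *mt-Nd4*.
copy start in mt-Co1: gttggtggtctaaccGGAATTGTTTTATCC
copy end in mt-Nd4: TACTCCTCAGTTAGCcacatagcacttgtt
*mt-Co1* has 31.3% of its bases in the copy, among them 100% of its last 300. It held 9057 counts over all libraries, against 5 for the genes wholly inside the copy. Where in *mt-Co1* these reads lie cannot be told from the counts. Its mean level was 610 ± 30.02 CPM at day 5 and 607 ± 442 CPM at day 7 (SD, n = 3), or 352 CPM at day 7 without mouse 1. *mt-Nd4* has 65.8% of its bases in nuclear copies but 10.3% of its last 300, since the copy stops upstream and a further one of 129 identical bases on chromosome 2 starts at chrM:11514. The other 7 genes have no base in a copy of that identity and length, but 3 of them hold stretches that match the nucleus exactly. Of the windows of 50 bases in *mt-Nd2*, 8.29% do, and of those in its last 300 bases 31.9%, so the limit on multiply aligned reads touches *mt-Nd2*, the reference of the ratios, as well. The shares of such windows are 7.61% in *mt-Nd5* (1.99% in its last 300 bases) and 6.13% in *mt-Rnr2* (0% in its last 300). How reads that align to more than 1 place were treated is not given in the sources used here, and the entry for such reads is 0 in every file, so what the counts of the 6 genes say of their RNA cannot be told. For *mt-Co1*, and for the matching stretches of *mt-Nd2*, the fraction of reads counted is unknown, and their places in the order of levels carry that limit.

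Among the 22 mitochondrial transfer RNA genes, whose short and mostly tail-less products a 3′-end kit is not built to read, 14 had enough counts to be tested. Of these, 7 rose and 2 fell, against 7.22% and 4.82% of all genes tested. These counts are no support for a direction, since 4 of the 14 were at 0 in every day 5 library, so that day 7 alone carried them past the filter (2 on each strand). Their counts summed to 137, 132 and 194 per library at day 5 and 445, 320 and 256 at day 7, which is 64.2 ± 6.92 CPM against 136 ± 31.1 CPM (SD, n = 3). All day 7 sums lay above all day 5 sums, while the protein-coding share fell.

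The most counted of the rising ones, *mt-Tm*, the methionine transfer RNA just upstream of *mt-Nd2*, went from 57 to 340 counts over the 3 libraries of a day (log2 fold change 2.52 ± 0.34, SE, adjusted p = 7.97e-05). *mt-Tv*, between the ribosomal RNAs, went from 7 to 74 counts, *mt-Ti*, which overlaps the end of *mt-Nd1*, from 8 to 67, and *mt-Tq* on the minus strand from 29 to 108. *mt-Ta* on the minus strand had 0 counts at day 5 and 27 at day 7, at least 8.52-fold higher against a floor of 3 counts over the day 5 group. The minus-strand genes *mt-Tc* (2 to 43 counts) and *mt-Tp* (59 to 176 counts) also rose. The call of *mt-Tp* was kept in 4 of 6 fits with a library left out, and those of the other 6 in all. *mt-Ta* was at 0 in every day 5 library, so leaving out a day 5 library says little of its call.

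*mt-Tt* and *mt-Tw* fell. *mt-Tt*, which starts on the base after *mt-Cytb* ends, went from 266 to 132 counts (log2 fold change -1.13 ± 0.31, SE, adjusted p = 0.0210), and *mt-Tw*, which overlaps the end of *mt-Nd2*, from 24 to 3. Of the windows of 50 bases in *mt-Tw*, 100% match the nucleus exactly, so the limit on multiply aligned reads holds for it in full. Among the rising ones that share is 23.5% in *mt-Tc* and 5.0% in *mt-Ta*. With a library left out, the call of *mt-Tt* was kept in 3 of 6 fits (adjusted p up to 0.176) and that of *mt-Tw* in 4 of 6 (up to 0.0691). With *mt-Nd6*, the genes of the minus strand held 51, 36 and 70 counts per library at day 5 and 251, 195 and 168 at day 7. No difference between the strands was tested, and the assignment to a strand has the same limit as for *mt-Nd6*.

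**Figure D4:**
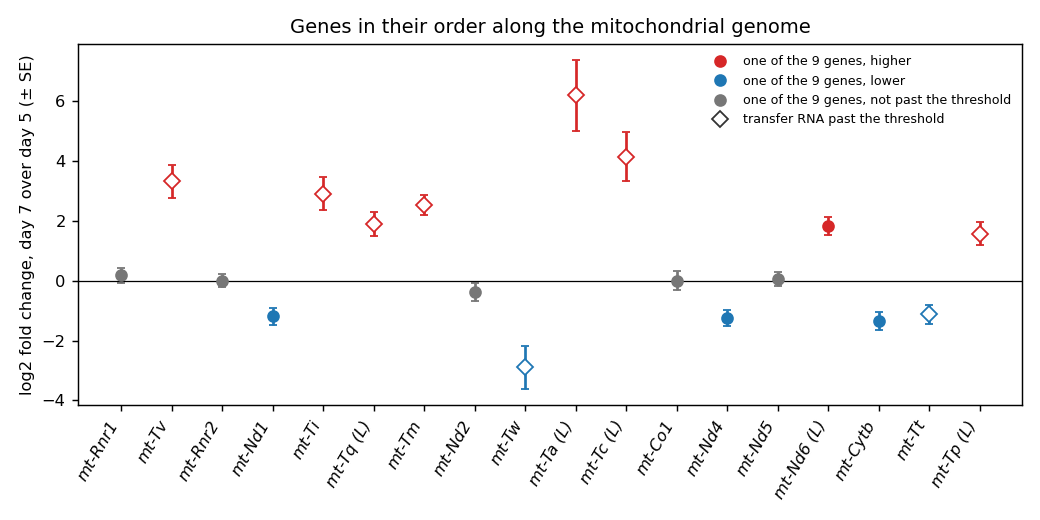
Log2 fold change of day 7 over day 5 with its SE, for the 9 genes (filled circles) and the 9 transfer RNAs past the threshold (open diamonds), in their order along the mitochondrial genome, with (L) for genes on the minus strand. Among the filled circles *mt-Nd1*, *mt-Nd4* and *mt-Cytb* lie below 0 (blue) and *mt-Nd6* above (red). The value of *mt-Ta*, with 0 counts at day 5, depends on the prior count and is no bound.

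Nuclear genes that work with the 9 were then counted in 12 lists of 274 genes, of which 272 were tested. Over all lists 9 rose and 21 fell (3.31% and 7.72% of those tested, against 7.22% and 4.82% of all genes), with a median log2 fold change of -0.21 beside -0.01 for all genes. With the mouse as a block 11 rose and 35 fell, and without the day 7 library of mouse 1, 13 rose and 34 fell, with a median of -0.23. Of the 78 nuclear subunits of the respiratory complexes and ATP synthase, 2 rose and 7 fell (2.56% and 8.97%). Their median was -0.24, beside -0.38 for the 7 mitochondrial messages. Without the day 7 library of mouse 1 these medians were -0.29 and -1.08.

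By complex, the nuclear subunits of complex I had 1 rise and 4 falls among 36 (2.78% and 11.1%, against 7.22% and 4.82% of all genes tested). *Ndufa6* rose (log2 fold change 0.86, adjusted p = 0.00569), whereas *Ndufb7* (-0.84) and *Ndufa3* (-0.69) fell. In complex III *Uqcrh* was the only 1 of 9 to pass (11.1%), with a rise of 0.81. In complex IV, 2 of 11 fell (18.2%), *Ndufa4* (-1.10) and *Cox5b* (-0.72), and in complex V 1 of 18 (5.56%), *Atp5pf* (-0.82). None of the 4 subunits of complex II, which has no mitochondrial subunit, passed in edgeR, DESeq2 or limma voom, with 2 at an unadjusted p under 0.05 in edgeR and a median of -0.33 (-0.52 without the day 7 library of mouse 1).

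Genes that make, process or translate mitochondrial RNA were counted in 3 lists. None of the 18 genes of mitochondrial DNA replication and transcription passed in edgeR (median -0.37), DESeq2 or limma voom, with 4 at an unadjusted p under 0.05 in edgeR, though with the mouse as a block 1 did, *Ssbp1* (-0.69, adjusted p = 0.0376), named after its value was seen. Of 26 genes of RNA processing and stability, 4 fell (15.4%, against 4.82% of all genes tested). They included *Slirp* (-0.94, adjusted p = 0.0125), whose product with that of *Lrpprc* keeps mitochondrial messages stable and adenylated. Others were *Rexo2* (-0.73), an RNase for short fragments, and *Dhx30* (-0.94), an RNA helicase of mitochondrial ribosome assembly. *Lrpprc* itself was the fourth, at -0.68. Of 78 genes for mitochondrial ribosomal proteins 4 fell (5.13%, near the 4.82% of all genes tested), and the list's median was -0.20. The 4 were *Mrpl20* (91.1 ± 4.93 to 41.8 ± 2.55 CPM, SD, n = 3, adjusted p = 0.000963), *Mrpl54* (-1.09), *Mrpl18* (-1.06) and *Mrps22* (-0.998).

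Of 35 assembly factors only *Cox14* passed, with a rise of 0.70 (2.86%, against 7.22% of all genes tested). Of 9 regulators of mitochondrial biogenesis *Pprc1* (-1.09) and *Esrra* (-0.84) fell (22.2%, against 4.82% of all genes tested). Another list held 14 genes whose proteins are taken as a measure of mitochondrial content, and here only their RNA was measured. Of these genes 4 fell (28.6%), with *Tomm40*, for the import pore, at -1.41. *Hspd1*, for the matrix chaperonin, was at -0.89 and *Slc25a4*, for an ADP/ATP carrier, at -0.74. The mitophagy list stood at the other end, with 6 of 14 genes higher (42.9%) and 0 lower in edgeR. In edgeR 10 had an unadjusted p under 0.05. The list had 0 lower in DESeq2, and 1 lower both in limma voom and with the mouse as a block. *Bnip3*, an outer-membrane mitophagy receptor that is also a target of hypoxia signalling, went from 35.7 ± 9.11 to 298 ± 91.3 CPM (SD, n = 3, adjusted p = 5.66e-07), and *Gabarapl1* (1.56) and *Bnip3l* (1.03) rose with it. Of the genes named from these lists, *Mrpl18*, *Mrpl20*, *Mrpl54*, *Bnip3*, *Bnip3l*, *Gabarapl1*, *Tomm40* and *Hspd1* kept their call with any library left out, and the others lost it at least once.

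**Figure D5:**
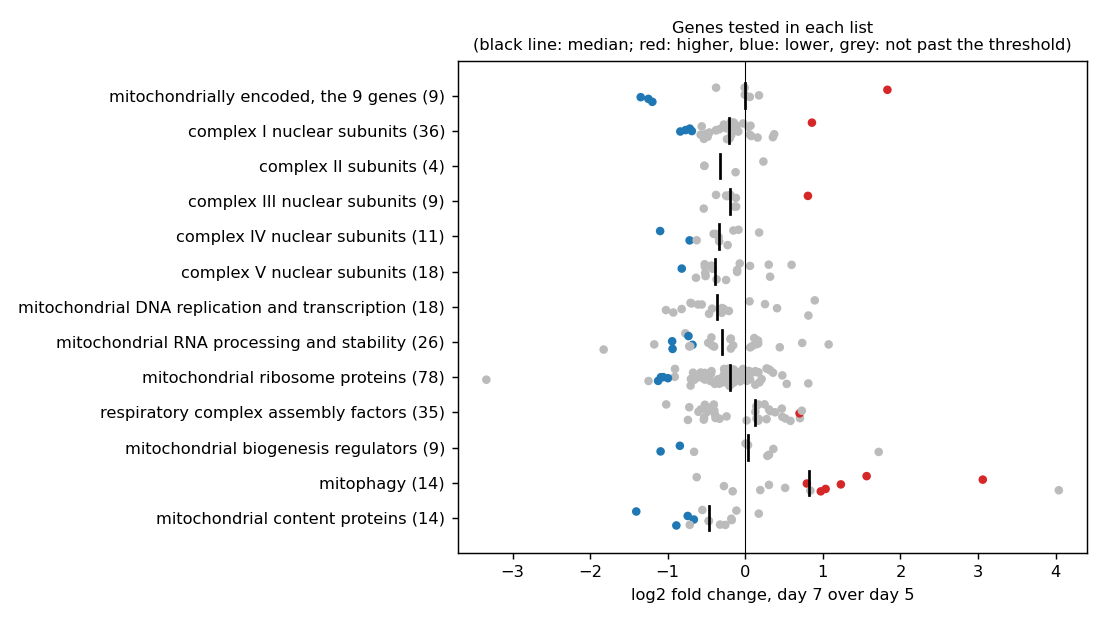
Log2 fold change of day 7 over day 5 for each tested gene of the 9 mitochondrially encoded genes and of 12 lists of nuclear genes, with the number of genes in brackets, red for higher, blue for lower, grey for not past the threshold and a black line at the median. The mitophagy list has 6 red points and no blue one, and most other lists have medians between -0.47 and 0.

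The nuclear genes whose levels ran most like those of the 9 genes were named by correlation across the 6 libraries, as a description, over 7994 genes of at least 10 CPM. Nearest to the mean of the 7 messages were *Ints14* (Pearson r = 0.994), *Scamp3* (0.993), *Carmil1* (0.991), *Prkar2b* (0.989) and *Slc7a1* (0.986). Nearest to the mean of the ribosomal RNAs were *Axl* (0.996), *Med25* (0.990), *Heatr5b* (0.975), *S100a4* (0.970) and *Rab1b* (0.969). None of the 10 was past the threshold between the days. All 10 were highest among the day 7 libraries in mouse 1, and the points share the same libraries and depth. They head a ranking of 7994 genes over 6 points, so a high r comes with the choice. No link to the 9 genes was tested.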

How the data were processed

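Raw counts per Ensembl gene ID were deposited for 6 libraries, 3 per day. Per the labels, the authors used the Lexogen QuantSeq 3′ kit, genome GRCm39 and edgeR. Aligner, annotation release, strand setting and how multiply aligned reads were handled are not given in the sources used here. Symbols and coordinates came from GENCODE vM39 (43465 of 47643 IDs matched). The closing entries that name no gene were 9.12% to 14.4% of reads and stayed out of library sizes and tests.

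The filter kept genes counted at least 1 time in 2 or more libraries. Testing used the quasi-likelihood F test (two-sided) in edgeR 4.0.16 (R 4.3.3, TMM, robust = FALSE, day as the only term), with Benjamini-Hochberg adjustment over all 15792 genes. CPM use TMM-scaled library sizes, and log2 CPM used a prior count of 2. The code was tested on simulated data. Alternatives were other scalings, filters, the mouse as a block, DESeq2 1.42.0, limma 3.58.1 voom, glmTreat and leaving out each library. Copies of the mitochondrial genome were sought with blastn 2.17.0 (word size 28). Intervals and floors cover counting error only, as reads were not counted by molecular identifiers.

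Per the labels, a number marks 1 mouse, which pairs the libraries of both days. Over the 8171 genes with a mean CPM of 10 or more, the correlation of deviations from the means of the days came to 0.14, -0.10 and 0.16 (mice 1 to 3). Libraries of a day all differed beyond sampling noise (smallest chi-square per degree of freedom 1.99).

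The genes and lists were chosen with earlier results of these data known, the lists from general knowledge. The text names the 9 genes, the other protein-coding mitochondrial genes, up to 3 genes with the smallest p past the threshold of each of 12 nuclear lists, the 5 nuclear genes most correlated with each mean, and the most counted ID. Transfer RNAs and the remaining genes were named after their values were seen. Protein sequences were not used here.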

Additional observations from a re-analysis of the deposited data

Results flagged for a closer look

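Reads outside the gene counts held a signal that the comparisons do not use. Reads that fell in no annotated gene made up a mean of 13.6% of all reads at day 5 and 8.94% at day 7, with no overlap between the days. Reads that overlapped several genes made up a mean of 0.460% at day 5 and 0.428% at day 7, with overlap. In what part they came from the mitochondrial genome was not tested.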

How the results depend on the processing

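Leaving out 1 library gave 1 to 5 falls among the 9 genes instead of 3 (1 without the day 5 or day 7 library of mouse 2, 5 without the day 7 library of mouse 1), and glmTreat gave 0, while *mt-Nd6* was called in all fits. Over all genes, glmTreat called 457 higher and 166 lower (623 in all) and leaving out 1 library 510 to 1449 higher and 284 to 1126 lower (794 to 2575 in all), instead of 1140 and 761 (1901). In the nuclear lists, 9 rises became 2 with glmTreat and 3 to 13 with a library left out, and 21 falls became 36 with library totals, 35 with the mouse as a replicate block, 2 with glmTreat and 5 to 41 with a library left out. With the block *mt-Nd2* was at -0.58 (adjusted p = 0.0335), short of the minimum fold, and no call of the 9 genes changed. The ribosomal RNA share difference of -0.239 percentage points turned to 0.0684 with reads in no gene in the denominator, and ranged from -0.935 to 0.508 with a library left out. The other differences kept their sign, -1.74 to -1.07 for the protein-coding share, -2.67 to -0.562 for all 9 genes and 1.65 to 3.25 for the ratio. Other scalings moved the median of all genes by at most 0.09 (log2). The cause of these changes was not tested. With 3 libraries a day, and a spread at day 7 that 1 library widens, the adjusted p of *mt-Nd1* ranged from 8.89e-09 to 0.102 and that of *mt-Cytb* from 2.35e-10 to 0.106. *mt-Nd6* and the transfer RNAs rest on few counts, where depth limits the precision.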
